A study of Mus musculus with 6 samples.

Results

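Collagen-I-high cells of a wild-type mouse femur at postnatal day 8 (P8) were picked out of an in situ imaging section by counts of 3 genes: at least 10 summed transcripts of Col1a1 and Col1a2 and fewer than 3 of Acan. The rule took 10739 of the 50523 cells with at least 5 detected genes in this section (21.3%, exact binomial interval 20.9 to 21.6%). The whole series holds 516626 such cells in 6 sections. Because these counts chose the cells, the levels of Col1a1, Col1a2 and Acan are descriptions here, and so is Runx2, whose count in each cell then divided the members into arms.

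The tissue was from wild-type C57BL/6 mice with no treatment named, and the leg bone was fixed in formalin, embedded in paraffin and cut at 5 µm. Day 8 was chosen by the study because decalcifying older bone harms RNA. Xenium imaging decoded single transcripts of 477 genes with gene-specific probes, and cells were outlined by growing each nucleus outward. A second group used for comparison is a wild-type fetal liver of embryonic day 14.5 (E14.5), imaged on the same slide with the same panel. The gate was also counted in the spleen of 1 wild-type mouse of 2 months, the spleen of 1 such mouse given phenylhydrazine, which destroys red cells, at 40 mg/kg, a wild-type fetal liver of E13.5 and wild-type bone marrow of 89 weeks. Each condition was 1 section, and the sources used here do not say how many animals the bone section came from, so no difference between conditions or between cells was tested, and no p-value is given. The intervals below cover counting error only.

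Type I collagen is the main fiber of bone, and is also made by fibroblasts of fascia, tendon, periosteum and the sheaths of muscle. Osteoblasts arise from mesenchymal progenitors on the surfaces of bone under the transcription factor Runx2, which hypertrophic chondrocytes also use in the growth plate. Acan encodes aggrecan, the large proteoglycan of cartilage. Osteoclasts, which come from blood progenitors, resorb the same bone surfaces that osteoblasts build.

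Most members had no Runx2 count. No Runx2 transcript was counted in 8657 members (80.6%), 1 in 1246 (11.6%) and 2 or more in 836 (7.78%, 7.28 to 8.31%). Among the other cells of the section, 4.09% had 2 or more, and among erythroid cells outside the gate, defined by at least 5 counts of the red cell anion exchanger Slc4a1, 0.907% did. Cells with 3 or more Acan counts reached 20.3%. A count of 0 of so sparse a gene, at a mean of 0.364 per member, does not show that a cell lacks it, and 42.4% of members with 0 Runx2 bore at least 10 counts of the osteoblast list, while 29.9% bore as many of the muscle list. The cells are called collagen-I-high members here, after the rule. Sp7, Bglap, Alpl, Ibsp and Spp1, the usual osteoblast genes, were not among the panel genes and could not be measured. The osteoclast genes Acp5 and Ctsk were not analysed here. Of the 2465 cells of the section with 2 or more Runx2 counts, 836 were members, 1035 had 3 or more Acan counts and 594 were in neither gate.

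The thresholds cut through a continuum. Cells with 8 to 9 collagen counts, just outside the gate, numbered 1701 and had 2 or more Runx2 counts in 3.59%. The 1321 members with 10 to 11 counts had them in 4.84%. On the Acan side, the share was 6.40% in the 8441 members with 0 Acan counts, 11.1% in the 1554 with 1 and 16.5% in the 744 with 2, against 19.96% in the 526 excluded cells with 3. Collagen-high cells that the Acan limit removed numbered 3203.

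In the map of the section the arms overlapped in part. The section holds a pair of bone pieces, an upper one with 6235 members and a lower one with 4504. By eye, members with 2 or more Runx2 counts ran in thin strips along the bone pieces and around pockets of other cells. They made up 9.14% (8.44 to 9.88%) of the members of the upper piece and 5.91% (5.24 to 6.63%) of those of the lower. Members with 0 Runx2 shared 100 µm squares with them in 3618 of 8657 cases. Others filled compact bundles beside the bone, and 37.6% of all members with 0 Runx2 had another cell with at least 10 counts of skeletal muscle genes within 20 µm.

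**Figure D1:**
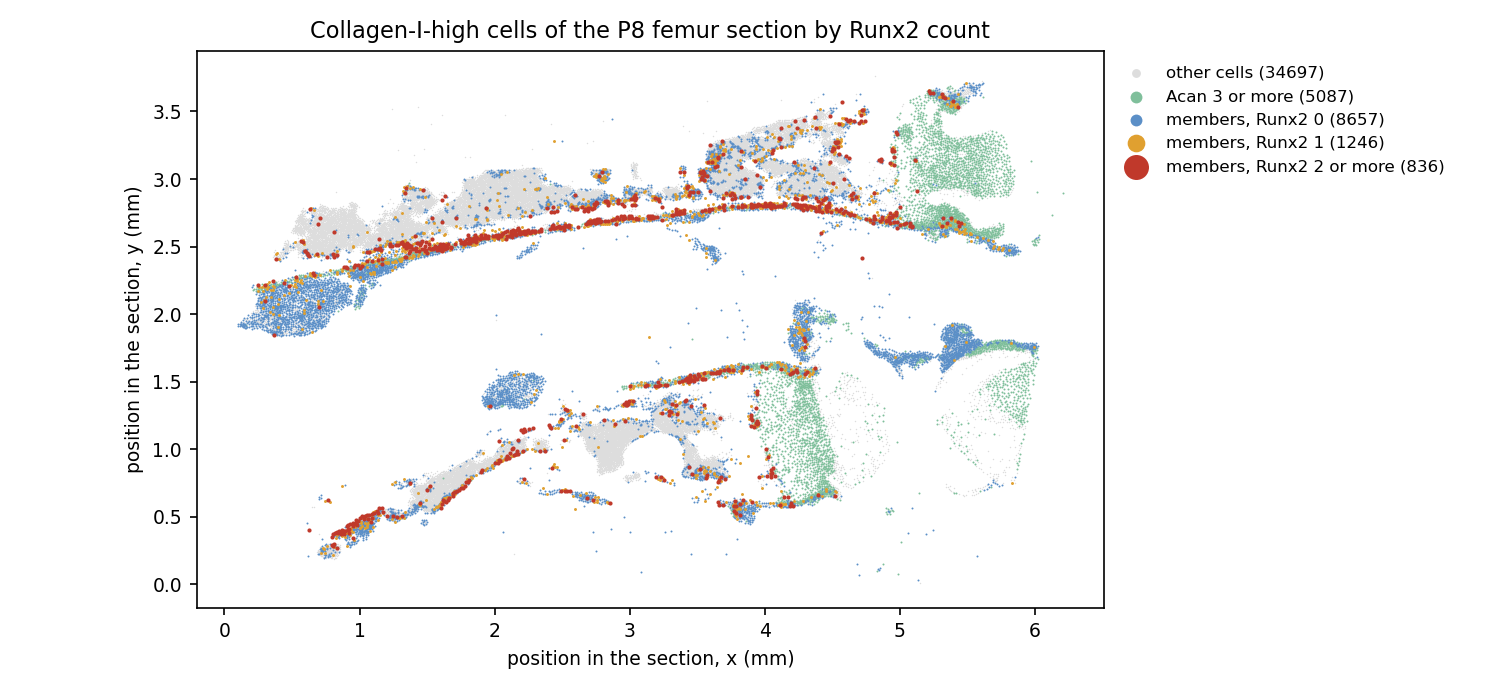
Position of each cell in the P8 femur section, both axes in mm, with members colored by their Runx2 count, cells with 3 or more Acan counts in green and all other cells in gray; numbers of cells are in the legend. The 836 members with 2 or more Runx2 counts lie in strips along the bone pieces, and the 8657 with 0 lie partly among them, partly in solid patches outside and partly scattered in the marrow.

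The cells of the arms also differed in size and depth. The median outline was 156 µm² in members with 2 or more Runx2 counts (quartiles 87.8 and 296), 116 µm² with 1 and 107 µm² with 0, against 42.0 µm² in the other cells. Median transcripts per cell were 182.5, 152 and 143 in the same order, and 105 in the other cells. Per 100 µm² of outline the arms were close, at 94.3, 92.9 and 99.7 transcripts. A deeper cell is more likely to show a Runx2 count, so the comparison was also made within 10 strata of depth, which gave 73 genes higher and 124 lower where 69 and 127 are reported below.

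To compare gene levels, the counts of each gene were summed over an arm and scaled to CPM, the usual scale for depth, with all genes other than Col1a1, Col1a2, Acan and Runx2 as the total, and genes were counted as higher or lower from 1.5-fold on. Probe numbers differ between genes, so levels are compared between cells and not between genes. Of 354 genes with at least 50 counts over both arms, 69 (19.5%) were higher and 127 (35.9%) lower in members with 2 or more Runx2 counts than in those with 0. The median of all 354 was −0.19 on the log2 scale. With counts per cell in place of CPM, the split was 101 higher and 104 lower. The 6446659 counts of the section came to a median of 109 per cell.

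Bone matrix genes were higher in the Runx2 arm. Of the 8 genes on the osteoblast lineage and bone matrix list, 7 were higher, none lower, and the median log2 ratio was 1.09. Serpinf1, the secreted protein PEDF whose loss causes a brittle bone disease, stood at 45726 CPM in the 836 members with 2 or more Runx2 counts and at 11848 in the 8657 with 0, a ratio of 3.86 (3.74 to 3.98). Bgn, the small proteoglycan biglycan of bone matrix, was 2.42-fold higher (2.38 to 2.47). Aspn, a related proteoglycan that binds collagen, was 1.54-fold higher and the growth factor Ptn 1.86-fold. The exception was Igf1, at a ratio of 0.81 and, without members bearing muscle or blood genes, 0.41 (0.35 to 0.47). In the lower bone piece Aspn was at 1.38 and Ptn at 1.28, and in the subset without such members Bgn was at 1.32, Ptn at 1.10 and Aspn at 1.05, all under 1.5-fold.

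Growth factors and their receptors were divided, with 6 of 15 compared genes higher, 3 lower and 6 within 1.5-fold. The shares over all 354 genes were 19.5% higher and 35.9% lower. Wif1, a secreted inhibitor that binds Wnt proteins, was at 14099 CPM with 2 or more Runx2 counts and at 2637 with 0, a ratio of 5.35 (5.04 to 5.67). Bmp2, a bone morphogenetic protein that induces bone, was 4.47-fold higher (3.78 to 5.27). Sfrp1, another secreted Wnt antagonist, was at 1.53 over all members, at 1.26 (0.98 to 1.60) in the lower piece and at 0.840 (0.704 to 0.997) without members bearing muscle or blood genes, and its level was 534 CPM with 5 or more Runx2 counts against 1297 with 0. Pdgfra, the receptor that marks mesenchymal progenitors, was 2.45-fold higher (2.34 to 2.56), its ligand Pdgfa 2.39-fold and Pdgfrb 2.24-fold. Without members bearing muscle or blood genes these were at 1.49, 2.20 and 1.25. Wnt2 went the other way with 5 counts against 309, a ratio of 0.14 (0.05 to 0.33), as did Igfbp6 at 0.23 and Igfbp7 at 0.53.

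Genes with the largest ratios were of mixed function. Mamdc2, which encodes a secreted matrix protein, was highest over all members at 7.002-fold (6.42 to 7.63). Hpgd, the enzyme that inactivates prostaglandins, followed at 6.89-fold, Cp, the copper-carrying ferroxidase ceruloplasmin, at 6.58-fold, and Vsnl1, a calcium sensor best known in neurons, at 6.56-fold on only 106 and 141 counts. The stress-induced chromatin protein Nupr1 was 4.83-fold higher. Scin, an actin-severing protein, was 5.28-fold higher.

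Both genes of the osteoclast list were higher. Atp6v0d2, a proton pump subunit needed for osteoclast fusion, was at 7172 against 1153 CPM, a ratio of 6.22 (5.72 to 6.77). Mmp9, a gelatinase of osteoclasts and neutrophils, was 4.39-fold higher (4.23 to 4.55). Within squares of 100 µm the ratios were only 1.57 for Atp6v0d2 and 1.47 for Mmp9. At least 3 Atp6v0d2 counts were found in 11.1% of members with 2 or more Runx2 counts, 5.30% with 1 and 1.34% with 0, against 0.473% of the other cells. In members with no Atp6v0d2 count, Scin came down to 1.93-fold and Mmp9 to 3.14-fold, while Mamdc2 stayed at 8.06-fold, Cp at 6.31-fold and Serpinf1 at 4.19-fold. How much of each gene came from an osteoclast within or beside the same outline was not tested.

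**Figure D2:**
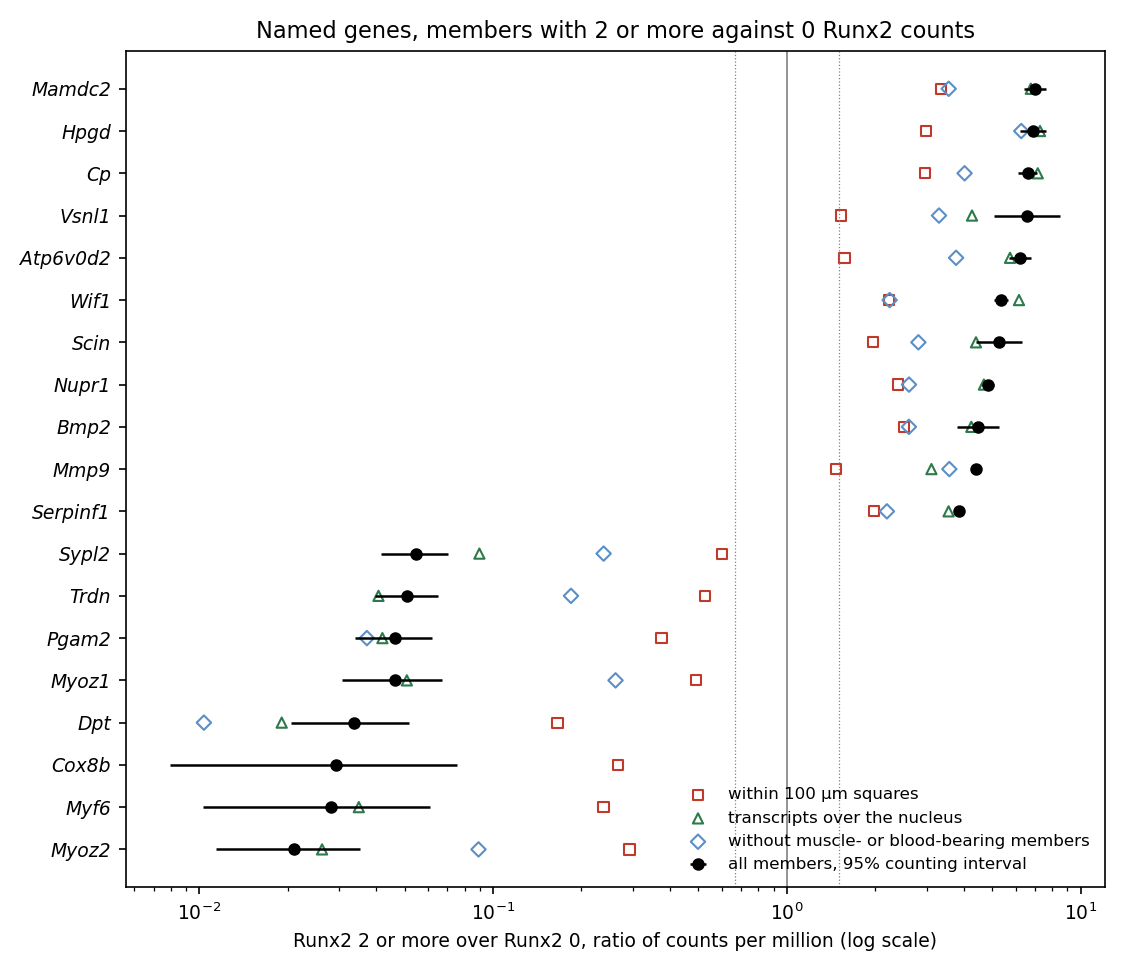
Ratio of CPM in members with 2 or more over members with 0 Runx2 counts, on a log axis, for 11 of the 12 genes with the largest ratio and the 8 with the smallest among genes with at least 200 counts. Filled points with bars give the ratio and its 95% counting interval over all members, and open symbols give it under alternatives; a symbol is left out where an arm had 0 counts. All 11 upper genes lie to the right of 1 under each setting drawn, with Mmp9 lowest at 1.47 within squares of 100 µm.

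The ratios were smaller, in the same direction, when position was held. Members of both arms were compared within squares of 100 µm that held both, of which there were 261 with 820 and 3618 cells. There the ratios of these 11 genes ran from 1.47 for Mmp9, 1.53 for Vsnl1 and 1.57 for Atp6v0d2 to 3.35 for Mamdc2. Serpinf1 was at 1.98, Wif1 at 2.22 and Cp at 2.94, and 32 of 298 genes were higher in place of 69. Counting only transcripts over the nucleus gave 3.55-fold for Serpinf1, 6.16-fold for Wif1 and 7.13-fold for Cp. Lower values were 4.26-fold for Vsnl1, 4.40-fold for Scin and 3.101-fold for Mmp9. This setting does not remove transcripts of blood cells. In members 50.7% of Slc4a1 and 47.4% of S100a9 transcripts lay over the nucleus, against 33.4% of all genes. The genes were chosen on both bone pieces together, so their direction in each is no independent check. By size, 47 of the 69 higher genes passed 1.5-fold in each piece. Serpinf1 was 4.14-fold higher in the upper and 3.17-fold in the lower piece, and Bgn 2.78-fold and 1.76-fold.

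Members with exactly 1 Runx2 count, which were in neither arm, mostly fell between them. This held for 54 of the 69 higher and 114 of the 127 lower genes. Serpinf1 went from 11848 CPM at 0 Runx2 counts to 24246 at 1, 36752 at 2, 49255 at 3 to 4 and 60596 at 5 or more. Wif1 followed the same order with 2637, 6954, 10248, 15194 and 21295. Aspn and Ptn did not: Aspn peaked at 31064 with 3 to 4 counts and was 21994 with 5 or more, and Ptn at 29671 and 22528. The intervals of the last pairs do not overlap for Serpinf1 and Wif1.

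**Figure D3:**
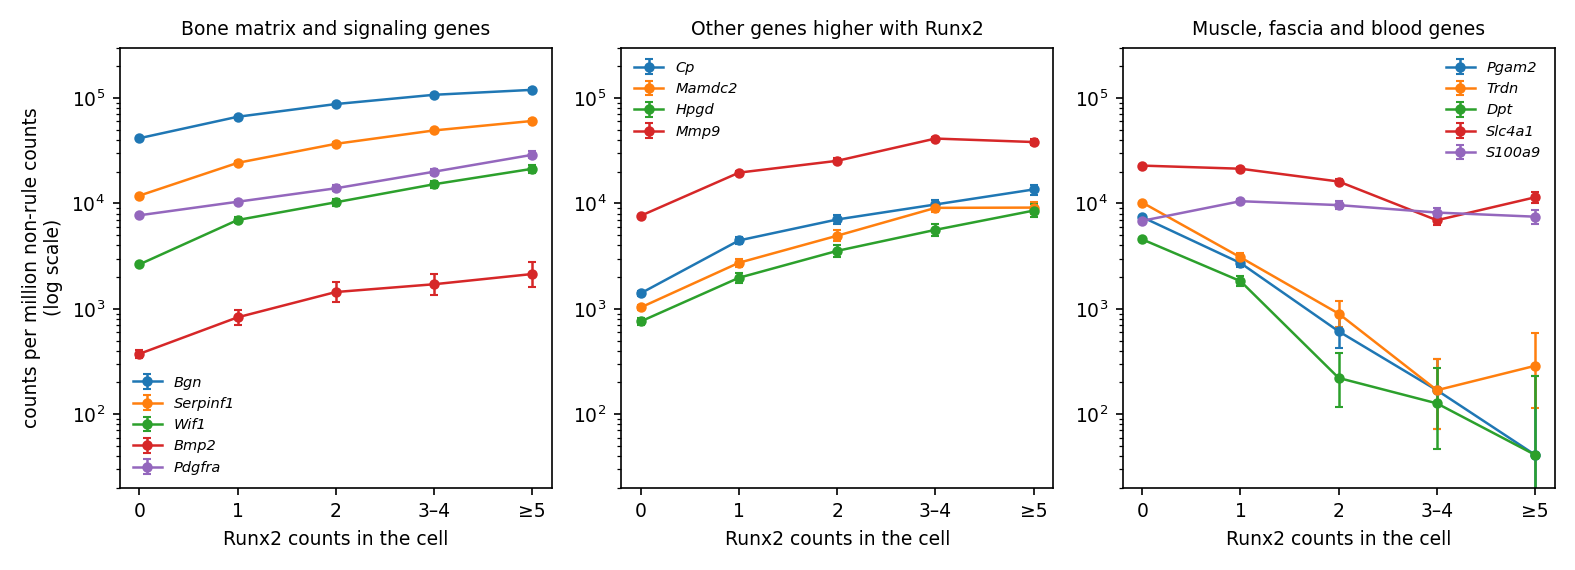
Counts scaled to CPM on a log axis against the number of Runx2 counts in the cell, for members only, with bars for 95% Poisson intervals; the groups hold 8657, 1246, 408, 300 and 128 cells. Serpinf1 and Wif1 climb at every step, whereas Trdn of muscle and Dpt of fascia drop from 10191 and 4557 CPM at 0 counts to 899 and 221 at 2.

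Shares of cells with a transcript were also compared at equal depth. Cells were thinned to 50 counts each, which left out 35 members with 2 or more Runx2 counts and 1102 with 0. Serpinf1 was then seen in 66.3% (62.9 to 69.6%) of the Runx2 arm, 48.6% of members with 1 count and 34.1% (33.1 to 35.2%) of those with 0, against 1.59% of erythroid cells outside the gate. Without thinning the shares were 80.4, 66.5, 52.3 and 3.67%. Wif1 gave 35.1, 22.8 and 10.99% after thinning, with 0.813% in erythroid cells. Mmp9 was seen in 19.1% of members with 0 Runx2 and in 19.0% of erythroid cells after thinning, with levels of 7639 and 6212 CPM.

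The named genes were not all highest in the Runx2 arm of the members. Setting that arm beside 8 other groups of cells of the section, 6 of the 11 upper genes had their highest level in it: Hpgd, Cp, Vsnl1, Wif1, Nupr1 and Serpinf1. Hpgd, at 5228 CPM, and Nupr1, at 19266, were within the intervals of the 5173 and 18956 in the cells with both 3 or more Acan and 2 or more Runx2 counts. Atp6v0d2 and Mmp9 were highest in the 188 cells outside the gate with 3 or more Atp6v0d2 counts, with Mmp9 at 84544 CPM. For Atp6v0d2 this follows from how those cells were chosen. Scin and Bmp2 were highest in the 1035 cells with both 3 or more Acan and 2 or more Runx2 counts, with Scin at 11173 and Bmp2 at 5220 CPM against 1500 and 1669 in the members. Mamdc2 reached 7407 in the 594 cells with Runx2 in neither gate, within the interval of the 7218 in the members.

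Skeletal muscle made the largest difference in the other direction. All 14 genes of the muscle list were lower with Runx2, with a median log2 ratio of −4.17. Members with 0 Runx2 counts held 36800 CPM of Ttn, the giant sarcomere spring titin, against 2319 with 2 or more. The sarcomere protein Myoz2 was 47.7-fold lower (28.4 to 87.2), the muscle transcription factor Myf6 35.6-fold on 6 counts against 1867, the muscle glycolytic enzyme Pgam2 21.5-fold and Trdn, which anchors calcium release channels, 19.6-fold. Myoz1 and Sypl2, of the sarcomere and its membrane junction, were 21.6-fold and 18.3-fold lower, and the muscle form of a respiratory chain subunit, Cox8b, gave a ratio of 0.03 (0.01 to 0.08) on 4 counts. Within squares of 100 µm these differences were smaller, at 4.21-fold for Myf6, 3.76-fold for Cox8b, 3.43-fold for Myoz2, 2.67-fold for Pgam2, 2.04-fold for Myoz1, 1.89-fold for Trdn and 1.67-fold for Sypl2. The bone pieces differed too, with Pgam2 79.0-fold lower in the upper and 8.78-fold lower in the lower piece. At least 10 counts of the list were borne by 29.9% of members with 0 Runx2, 8.19% with 1 and 2.03% with 2 or more, and by 1.702% of the other cells.

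On the fibroblast, fascia and tendon list 8 of 15 genes were lower and 4 higher, beside 35.9% and 19.5% of all 354 genes. Without members bearing muscle or blood genes 10 were lower and 1 higher. In that subset 115 of all 245 compared genes were lower and 30 higher. Dpt, the dermatopontin of loose connective tissue, had 20 counts against 5199 and was 29.8-fold lower (19.3 to 48.8). The microfibril protein Mfap5 had a ratio of 0.14 and the tendon protein Thbs4 of 0.19, while Lum, a proteoglycan of collagen fibers, was at 1.97 and Ccdc80 at 1.83, the latter at 1.27 in that subset. Without muscle-bearing members Dpt stayed at a ratio of 0.03, and within 100 µm squares it was 6.04-fold lower. At least 10 counts of the fibroblast list, not scaled for depth, were borne by 31.1% of the Runx2 arm and 27.6% of members with 0. On the fat-linked list 3 of 4 genes were lower, with Car3, a carbonic anhydrase of muscle and fat, at 0.22.

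Blood genes were present in both arms. Over all 354 genes compared, 19.5% were higher with Runx2 and 35.9% lower. Of 12 erythroid genes 9 were lower with Runx2, Slc4a1 at a ratio of 0.52 (0.50 to 0.55), and none was higher. Of 12 neutrophil genes 4 were higher: the granule proteases Elane and Ctsg at 2.08-fold and 2.76-fold, the peroxidase Mpo at 2.05-fold and Fcnb at 1.72-fold, all genes of early granule-forming stages. The late-stage gene S100a9 was at 1.27. Elane stood at 7371 CPM in the Runx2 arm, 3535 in members with 0 Runx2 and 5557 in those of them under 10 muscle counts. At least 10 erythroid counts were borne by 29.9% of the Runx2 arm and 32.9% of the arm without, and 10 neutrophil counts by 18.3 and 12.3%. Members with 1 Runx2 count were above both arms, at 39.6% for erythroid and 20.5% for neutrophil counts. On the macrophage list 8 of 17 genes were lower and 3 higher, with a median log2 ratio of −0.43. The summed level of the list was near equal, at a ratio of 0.948. At least 10 macrophage counts, not scaled for depth, were borne by 14.1% of the Runx2 arm and 10.4% of members with 0. C1qb, C1qa and C1qc, the complement genes of resident macrophages, were at 0.52, 0.40 and 0.46, and the lysosomal Cd68, which osteoclasts also carry, was 2.36-fold higher.

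The remaining lists held vessels, cartilage and others. Their counts stand beside 19.5% higher and 35.9% lower over all 354 genes, and several lists were near these shares. Of 13 endothelial genes 6 were lower and none higher, with the clotting protein Vwf at 0.40 and Cavin2 at 0.22, while Kdr, a receptor for vascular growth factor, did not pass 1.5-fold. Without members bearing muscle or blood genes 12 of the 13 were lower, Kdr at 0.56 (0.46 to 0.68) among them, beside 115 of all 245 genes compared there. The mural and smooth muscle list gave 2 higher, led by Pdgfrb, and 3 lower, among them the pericyte gene Rgs5 at 0.37 and Myh11 at 0.11, and in that subset none of 6 was higher and 4 were lower. For cartilage, Sox9, the transcription factor of chondrocytes, was 2.61-fold higher (2.19 to 3.11) and its collagen Col2a1 1.58-fold lower (ratio 0.63, 0.56 to 0.71). By piece, Col2a1 was at 0.895 (0.754 to 1.057) in the upper and 0.562 (0.468 to 0.671) in the lower, and Sox9 at 2.98 and 2.43. Without members bearing muscle or blood genes Sox9 was at 1.41, under 1.5-fold, and Col2a1 3.72-fold lower. All 3 megakaryocyte genes were lower, none of 6 lymphoid genes passed 1.5-fold, and 1 of 4 cell cycle genes did, Ube2c at 0.63. Among 10 chemokines 2 were higher, Ccl9 at 2.29 and Ccl3 at 1.88, and 3 lower. The matrix and adhesion list had 8 of 18 higher, with the proteoglycan Sdc1 at 2.54 and the integrin chain Itgb1 at 1.59, and 4 lower. In that subset Sdc1 was at 1.39 and Itgb1 at 1.35.

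**Figure D4:**
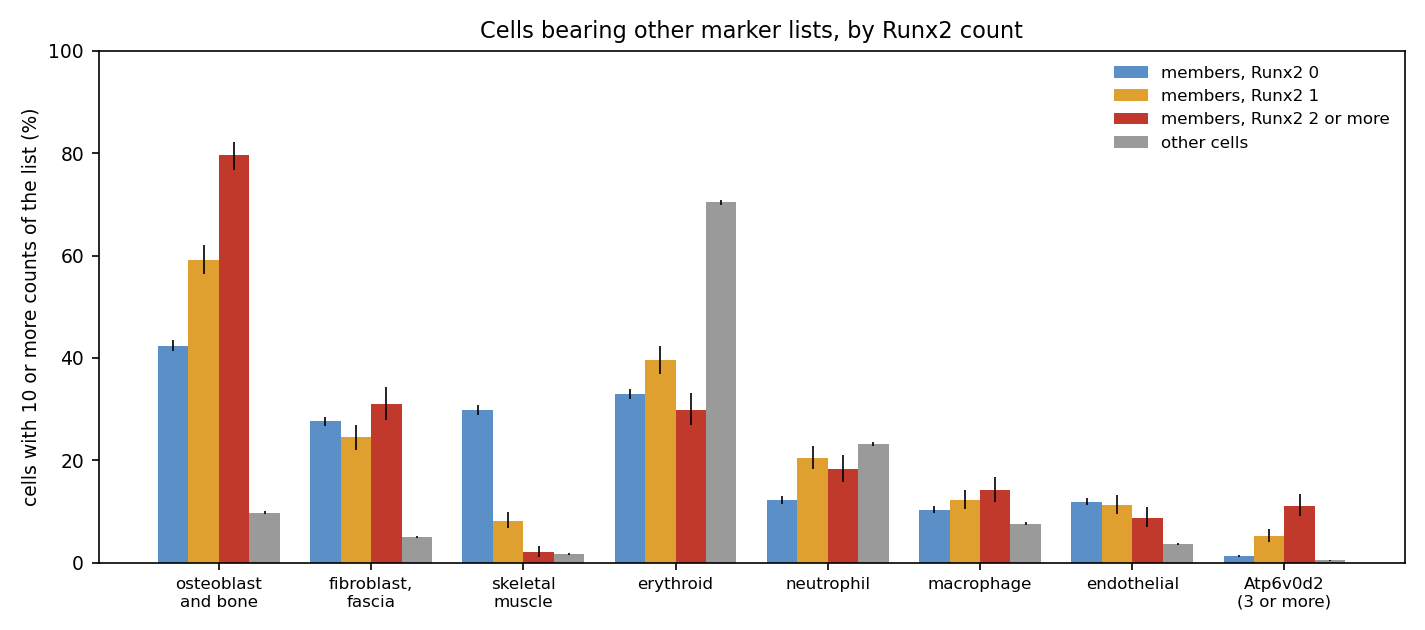
Share of cells, in percent, with at least 10 counts summed over a marker list (for Atp6v0d2, at least 3 counts of the gene), by Runx2 count and in the other cells; bars start at 0 and the lines are 95% exact binomial intervals. Bearing of the osteoblast list climbs from 42.4% at 0 to 79.5% at 2 or more Runx2 counts, and bearing of the muscle list drops from 29.9 to 2.03%. The counts are raw and not scaled for depth, which was a median of 182.5 transcripts per cell with 2 or more and 143 with 0.

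When the members that bore at least 10 counts of muscle, erythroid, neutrophil, macrophage or megakaryocyte genes were set aside, 498 cells with 2 or more and 2851 with 0 Runx2 counts were left. In these, 30 of 245 genes were higher and 115 lower. Serpinf1 was then 2.19-fold higher (2.11 to 2.27), Wif1 2.24-fold and Bmp2 2.60-fold. Hpgd kept 6.27-fold, while Mamdc2 came down to 3.55-fold and Cp to 4.02-fold. Of 8 osteoblast genes 3 were at least 1.5-fold higher, with 1 lower. The median log2 ratio of the osteoblast list was 0.27, beside −0.52 over all 245 genes. None of 11 erythroid genes was lower there, with Slc4a1 at 0.85, and none of 7 neutrophil genes was higher, with Elane at 1.11 and Mpo at 1.10. Of 13 macrophage genes 10 were lower and 1 higher, with a median log2 ratio of −1.88. The subset was itself cut by counts of these blood genes. Atp6v0d2 remained 3.76-fold and Mmp9 3.57-fold higher. This subset was defined after the data had been seen.

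Members with Runx2 sat close to cartilage-type cells, to osteoclast-type cells and to each other. Their median distance to the nearest cell with 3 or more Acan counts was 28.3 µm, against 50.5 µm with 1 Runx2 count and 75.7 µm with 0. To the nearest of the 463 cells with 3 or more Atp6v0d2 counts it was 34.3 µm, against 68.3 and 162 µm, and 31.9% (28.8 to 35.2%) had such a cell within 20 µm, against 4.92% (4.47 to 5.40%) of members with 0. Of these 463 cells 275 were themselves members, 93 of them in the Runx2 arm, so this distance overlaps with that among the arm's own cells. Among the 10 nearest cells of a member with 2 or more Runx2 counts, a mean of 1.66 (SD 1.64) were of the same kind, or 16.6%, where these cells make up 1.65% of the section. Around members with 0 Runx2 it was 0.248 of 10. Erythroid cells were few around the members: 13.9% of the neighbors of the Runx2 arm and 18.6% of those of members with 0 had at least 5 Slc4a1 counts, against 52.0% around other cells.

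**Figure D5:**
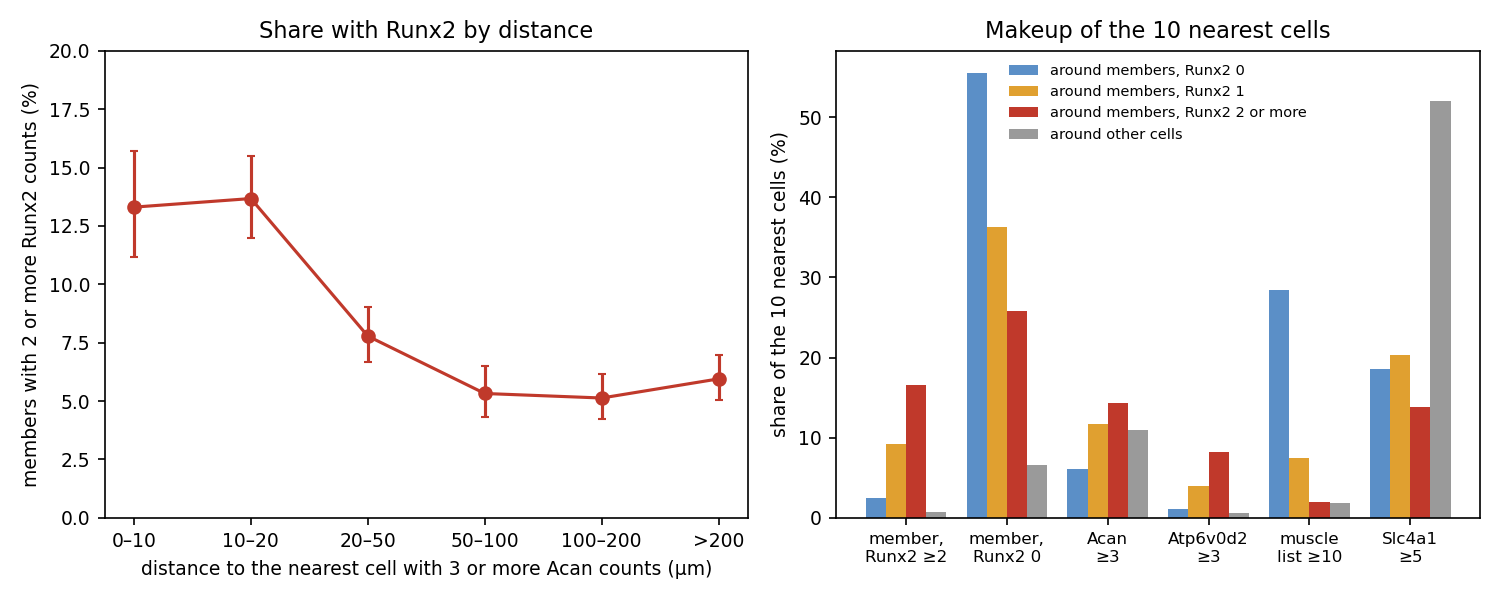
Left, percentage of members with 2 or more Runx2 counts by distance to the nearest cell with 3 or more Acan counts in µm, with 95% exact binomial intervals. Right, mean share in percent of each kind of cell among the 10 nearest cells, by group. The left share is 13.3% within 10 µm, 13.7% at 10 to 20 µm, 5.13% at 100 to 200 µm and 5.95% beyond 200 µm. On the right the Atp6v0d2 cells make up 8.17% of the neighbors of members with 2 or more Runx2 counts and 1.06% of those with 0.

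Pooled over all Runx2 counts, matrix gene levels differed with the distance from cartilage-type cells. Bgn stood at 139856 CPM in the 902 members within 10 µm of a cell with 3 or more Acan counts, 70256 at 20 to 50 µm and 20294 beyond 200 µm. Serpinf1 gave 45841, 23916 and 6284 in the same bins, and Mamdc2 5308, 2425 and 560. Muscle genes summed to 17431, 182660 and 43023 CPM in these bins, with the highest level of 237555 at 50 to 100 µm, and their part in the matrix values, like that of the Runx2 share, was not tested. Cp went from 3576 to 2124 and 2694, and Mmp9 from 10992 to 8466 and 14492. Among members more than 20 µm from every such cell, 80 of 344 genes were higher with 2 or more Runx2 counts than with 0. Wif1 was 9.08-fold higher there, its largest ratio of 17 settings, against 5.35-fold over all members. The part of this distance in the Runx2 comparison was not tested.

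Much of the type I collagen RNA lay outside the outlines. Of the Col1a1 transcripts of the section, 46.1% fell in no segmented cell, and 40.7% of those of Col1a2, the highest shares among 256 genes with at least 1000 transcripts, against 10.6% over all genes. Col2a1 followed at 38.0%. Such Col1a1 transcripts had a median distance of 74.4 µm to the nearest nucleus, against 69.7 µm for transcripts of all genes outside cells. For Runx2 the share outside was 7.47% and for the muscle gene Ttn 3.19%. Within members, 21.5% of Col1a1 transcripts were over the nucleus against 46.3% of Runx2 and 33.4% of all genes, where the nucleus took 14.1% of the outline. Among genes of other cell types, the share was 50.7% for Slc4a1, 47.4% for S100a9 and 17.6% for Ttn. The gate thus counts a part of the collagen RNA.

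Against all other cells of the section, the members as a whole differed first by muscle. Of 466 genes 174 (37.3%) were higher and 116 (24.9%) lower, and the median of all genes was 0.06 on the log2 scale. The split was 202 higher and 74 lower with counts per cell, 101 and 249 per cell area, and 154 and 158 with all genes in the total. All 14 muscle genes were higher, among them Pvalb, the calcium buffer of fast fibers, at 24.2-fold (23.1 to 25.3), Actn3 at 20.4-fold, Des at 20.01-fold and Ttn at 19.9-fold. Pgam2, Myoz1, Trdn, Sypl2, Pygm and Hrc were between 15.7-fold and 20.7-fold higher. Without the members that bore 10 or more muscle counts, Ttn and Actn3 were below the other cells, with ratios of 0.71 and 0.74, and Pvalb was at 1.14. That cut used the muscle genes themselves and was made on the members only. The 677 muscle-bearing cells among the other cells stayed in, so these ratios are a description. Dpt and Mfap5 of fascia, at 22.1-fold and 17.8-fold, were still 1.84-fold and 1.83-fold higher within 100 µm squares.

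Among the other lists, 7 of 8 osteoblast genes, 13 of 15 fibroblast genes, 7 of 8 mural genes, 12 of 13 endothelial genes, 14 of 16 growth factors and receptors, all 4 fat-linked genes, 7 of 14 chemokines and 13 of 18 matrix genes were higher in the members. Of 17 macrophage genes 4 were higher and 13 within 1.5-fold, with a median log2 ratio of 0.02. All 12 erythroid, 10 of 12 neutrophil, 3 of 4 cell cycle, 5 of 8 lymphoid and 2 of 3 megakaryocyte genes were lower. These counts stand beside 37.3% higher and 24.9% lower over all 466 genes. Serpinf1 was 3.74-fold higher, Bgn 2.55-fold, Aspn 4.34-fold and Atp6v0d2 4.40-fold, whereas Bmp2 at 1.06 and Mmp9 at 1.09 were near equal. The genes with the largest differences downward were of cartilage, which the Acan limit had kept out: Ucma 11.7-fold, Comp 10.4-fold, Pou3f3 9.88-fold, Col2a1 7.49-fold, Sox9 4.70-fold and Fxyd3 4.34-fold lower. Against the other cells without those Acan cells the direction turned for Comp, at 2.78, Col2a1, at 1.51, and Sox9, at 3.76. Ctse, a protease of the red cell lineage, was 4.25-fold lower (4.17 to 4.35), and the lipase Lipg 3.92-fold, but Lipg was at 2.90 within 100 µm squares and at 1.15 without the Acan cells.

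Against the 5087 cells with 3 or more Acan counts, 256 of 394 genes (65.0%) were higher in the members and 50 (12.7%) lower. All 12 neutrophil, 12 erythroid and 17 macrophage genes were higher, with Fcnb at 39.7-fold (24.0 to 71.1) on 15 counts in the cartilage cells, the receptor Csf3r at 37.1-fold, Ctse at 32.4-fold, Abca13 at 31.7-fold on 4 counts, S100a9 at 30.9-fold and Ifitm6 at 27.7-fold. The osteoblast list went the other way, with 1 of 8 genes higher in the members, 2 lower and 5 within 1.5-fold. Its median log2 ratio was −0.50 beside 1.199 over all genes. Of the 5087 cells 3203 had 10 or more collagen counts themselves, 835 of them with 2 or more Runx2 counts. The Runx2 arm alone was above the 5087 cells for Serpinf1 (45726 against 22077 CPM), Wif1 (14099 against 5812) and Ptn (26162 against 22449). It was below them for Bgn (100729 against 103798), Aspn (26989 against 27695, with overlapping intervals) and Bmp2 (1669 against 3073). Of these cells, 1035 had 2 or more Runx2 counts themselves. Beside those, the arm was above for Serpinf1 (27722 CPM), Wif1 (4399) and Bgn (88220). It was below for Aspn (31206) and Bmp2 (5220), and for Ptn (26943) the intervals overlapped. Against all 5087 cells, Bgn was 2.08-fold lower in the members as a whole, Bmp2 5.64-fold lower and Igf1 2.62-fold higher. Lower genes were Ucma at 85.4-fold, Comp at 80.3-fold, Pou3f3 at 69.3-fold, Col2a1 at 54.8-fold, Sox9 at 35.4-fold and Fxyd3 at 27.4-fold. Runx2 itself stood at 2715 CPM in the members and 8064 in the cartilage cells, and Col1a1 at 127460 and 113590, as a description.

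The same gate took far fewer cells in the other tissues. It held 5006 cells of the E14.5 fetal liver (4.27%), 973 of the adult wild-type spleen (0.898%) and 3919 of the spleen of a mouse given phenylhydrazine (4.15%). On the panel of 5050 genes it held 105 of 5254 cells of the E13.5 fetal liver (2.00%) and 92 of 140707 of the marrow of 89 weeks (0.0654%). The paper describes adult femurs cut frozen, with the marrow freed of bone before it was embedded. The part of this step and of the other panel in these counts was not tested. Runx2 counts of 2 or more were found in 20 of the 5006 liver cells (0.3995%, 0.244 to 0.616%) and in 9 of the 92 cells of that marrow (9.78%, 4.57 to 17.8%), in 25 of 973 cells of the adult wild-type spleen (2.57%), in 37 of 3919 of the other spleen (0.944%) and in 0 of 105 of the E13.5 liver, which allows a share of up to 3.45%. Against the liver cells 137 of 442 genes (31.0%) were higher in the P8 members and 188 (42.5%) lower. Runx2 was 14.4-fold higher (12.4 to 16.9), as a description of a gene that the gate did not use in this comparison. The lists of stroma were divided. Of 8 osteoblast genes 5 were higher and 3 lower, with sums of 111830 CPM in the members and 91154 in the liver cells. Of 15 growth factors and receptors 5 were higher and 8 lower, of 15 fibroblast genes 10 and 3, and of 8 mural genes 2 and 6. The osteoclast genes had a median log2 ratio of 5.76 and the 14 muscle genes of 7.21, led by Pvalb at 812-fold on 13 liver counts, Myoz1 at 320-fold, Ttn at 318-fold, Trdn at 277-fold and Actn3 at 232-fold, while Cox8b had 3 counts in the liver and a ratio of 262 (89.4 to 1272). Lower in the femur were the mesothelial Upk3b at 634-fold and Upk1b at 150-fold, the liver protein Ambp at 208-fold, the endocytic receptor Lrp2 at 120-fold, the keratin Krt19 at 102-fold and the transcription factor Lhx2 at 83.0-fold. Tissue and age differ together between these sections and cannot be told apart.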

How the data were processed

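The authors deposited per section a cell-by-gene matrix of raw transcript counts from Xenium Onboard Analysis (version 1.7.1.0 for the P8, E14.5 and spleen sections, 3.1.0.4 for the others, per the file headers), with cell outlines by nuclear expansion and a quality score for each transcript. Deposited transcript positions were used from a score of 20 on. A cell had to hold at least 5 detected genes. The P8 section held 52594 deposited cells and 6446659 counts in the cells kept, a median of 109 per cell.

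The members and the gene lists were chosen with earlier results of these data known. Counts were summed over cells and scaled to CPM, with all genes outside the rule as the total. Genes with at least 50 counts over both groups were compared, and called from 1.5-fold. Named genes had at least 200 counts and were the 12 with the largest and the 8 with the smallest ratio (6 and 6 against the Acan cells and the liver), of which 1 is not reported here. Genes of the lists are named beside them. Ratios carry exact conditional Poisson intervals, shares exact binomial (Clopper-Pearson) ones, both at 95% and for counting error only. Cells of 1 section are not replicates, so no test was run. Ratios within strata or squares are Mantel-Haenszel ratios. The bone pieces were divided by a straight line drawn after seeing the map. The summing and ratio steps were tested on simulated data. Python 3.11.15, NumPy 2.4.6, SciPy 1.17.1, pandas 2.3.3 and matplotlib 3.10.9 were used. Alternatives were other scalings, depth strata, squares of 100 µm, transcripts over the nucleus, other gene minimums and gates, and, added after seeing the data, subsets without muscle, blood or Atp6v0d2 counts and each bone piece.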

Additional observations from a re-analysis of the deposited data

How the results depend on the processing

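No paired analysis was possible because each condition was 1 section and the result comes from no test. For members with 2 or more against 0 Runx2 counts, the 69 higher genes became 32 within squares of 100 µm, of which 27 were among the 69, and 30 without members bearing muscle or blood genes, of which 24 were. Under the other settings run the higher genes numbered 57 to 101, and the lower genes 95 to 150 under every setting run. None of the 19 named genes changed side of 1 in this comparison. Against the other cells, the 174 higher genes became 101 per cell area and 66 within squares. The 116 lower genes became 74 per cell, 249 per cell area, 24 within squares, 63 over the nucleus and 68 for members under 10 muscle counts. Changes of side were seen for 11 values. For members under 10 muscle counts the ratio was 0.741 for Actn3, 0.711 for Ttn, 0.690 for Myoz1, 0.677 for Trdn, 0.690 for Sypl2 and 0.686 for Pygm. Without the Acan cells among the other cells it was 2.78 for Comp, 1.51 for Col2a1, 3.76 for Sox9 and 1.15 for Lipg, which was at 2.90 within squares. The muscle subset removes cells by these genes, from the members only, and the Acan cells hold most of the cartilage counts. The cause of the other changes was not tested. The gate gave 6005 members at 20 or more collagen counts, 8441 at 0 Acan, 8603 with collagen at 10% or more of the counts, 8032 under 10 muscle counts, and 3909 under 10 counts of muscle and of each blood list. Genes under 50 counts were not compared, and with 1 section the spread between animals is unknown.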
